A study of Mus musculus with 6 samples.

Results

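Aminoacyl-tRNA synthetases were examined in MLL-AF9 leukemia cells of mice that received vehicle or DS-5272. The set holds 36 listed genes, 20 for cytosolic enzymes and 16 for mitochondrial enzymes, whose mouse symbols end in 2. It was taken from the 26082 different gene names of the deposited table by symbol alone. Of the 36 genes, 35 had an entry of their own (19 cytosolic and 16 mitochondrial), and all 35 reached the mean of 1 FPKM over the 6 samples that was asked of the 11130 genes tested. The remaining member, Aars, stood only in an entry joined with its neighbour Exosc6 and is described apart. FPKM (fragments counted per unit of transcript length and of library size) divide out length, so levels of different genes can be compared per length.

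Bone marrow progenitors had been transduced with a retrovirus that carries the fusion oncogene MLL-AF9 together with GFP and transplanted into C57BL/6J mice, which makes a model of acute myeloid leukemia in which all leukemia cells carry the transgene. The vehicle group (n = 3) received vehicle by mouth, and the DS-5272 group (n = 3) received DS-5272, an inhibitor of the binding of MDM2 to p53, at 80 mg/kg by mouth. Leukemia cells were sorted from bone marrow 24 h later, and their RNA was sequenced in bulk. The labels give neither the age of the animals nor whether each sample is 1 animal, so p-values measure the spread between these samples.

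Aminoacyl-tRNA synthetases join each amino acid to its tRNA, the step that fixes the meaning of the genetic code before the ribosome reads it. Most animals keep separate nuclear genes for the cytosolic and the mitochondrial enzyme, while some genes, such as Gars and Kars, make both forms from a single locus. Several cytosolic enzymes are held together with 3 scaffold proteins in the multisynthetase complex. Transcription of many cytosolic synthetase genes is known to respond to ATF4 when amino acids are short, and leukemia cells that divide fast need a large supply of charged tRNA.

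The samples matched their labels in part. Hoxa9 and Hoxa10, targets of MLL-AF9, stood in a joined entry with 220, 290 and 267 FPKM across vehicle replicates 1 to 3 and 204, 218 and 237 FPKM across DS-5272 replicates 1 to 3. The summed level of the 8 other genes that mark myeloid leukemia cells was 3897 to 4490 FPKM with vehicle and 2383 to 2497 FPKM with DS-5272. Of these 8 genes, 4 were called lower (Mpo, Elane, Ctsg and Kit) and 2 higher (Itgam and Sfpi1). Of all genes tested, 22% were called lower and 24.2% higher. The most abundant of the 8 over all samples, Ctsg, had 1593, 1447 and 1436 FPKM with vehicle and 1138, 788 and 523 FPKM with DS-5272. DS-5272 replicate 3 was the shallowest library, at 0.539 of the depth of vehicle replicate 1, against 0.652 to 0.885 in the others. It also had the highest Cdkn1a, a p53 target, with 485 FPKM beside 32.3 and 117 FPKM after the same treatment in replicates 1 and 2 and 14.8, 28.1 and 25.5 FPKM with vehicle (limma adjusted p = 0.061, 0.014 with the replicate number as a block). Mdm2, another p53 target, had 27.1, 36.3 and 40.0 FPKM with vehicle and 42.6, 78.8 and 210 FPKM with DS-5272 (limma adjusted p = 0.073, 0.015 with the block).

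Synthetase mRNAs of both compartments were lower after DS-5272, and no member was called higher. Of the 19 cytosolic members, 13 passed the threshold as lower, and of the 16 mitochondrial members, 9 did. No rescaling gave a higher call. Among all genes tested 22% were called lower and 24.2% higher. The median log2 fold change, of log2(FPKM + 1) in DS-5272 minus vehicle, was −0.51 for the cytosolic members (quartiles −0.74 and −0.33) and −0.56 for the mitochondrial members (quartiles −0.65 and −0.10), beside 0.04 for all genes tested. The cytosolic median minus the mitochondrial median was 0.04, a value that depended on the setting. With 0.1 in place of 1 added to FPKM, the medians were −0.52 and −0.64, a difference of 0.12. The difference was −0.02 among members with a mean of at least 5 FPKM and −0.12 with quantile normalization. Without any added constant, the median member stood at 69.9% of its vehicle mean in the cytosolic list and 63.8% in the mitochondrial list. In bulk RNA, fewer cells of a type and less RNA per cell cannot be told apart.

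Calls were made with limma on log2(FPKM + 1), with Benjamini-Hochberg adjustment over all genes tested and a threshold of 0.05. The vehicle and DS-5272 values did not overlap, with DS-5272 lower, in 15 of 19 cytosolic and 10 of 16 mitochondrial members, against 29.7% of all genes tested. Without DS-5272 replicate 3 the counts of lower members were 13 of 19 and 10 of 16, where 19.7% of all genes were lower. Without vehicle replicate 1, 2 or 3 the cytosolic count was 7, 7 and 8 and the mitochondrial count 6, 5 and 5, where 15.1%, 12.7% and 13.4% of all genes were lower. Without DS-5272 replicate 3 the mitochondrial median was −0.42. Rescaling every sample to a common total (TPM) moved the median of all genes from 0.04 to −0.19 and the shares of all genes called lower and higher to 31.9% and 15.4%, and 16 cytosolic and 9 mitochondrial members were then lower. Upper quartile rescaling moved the median of all genes to −0.08 and these shares to 28.6% and 20.1%. Relative to the median of all genes, the cytosolic and mitochondrial medians were −0.55 and −0.60 as deposited, −0.58 and −0.57 with the common total, −0.57 and −0.58 with upper quartile rescaling and −0.64 and −0.53 with quantile normalization.

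**Figure D1:**
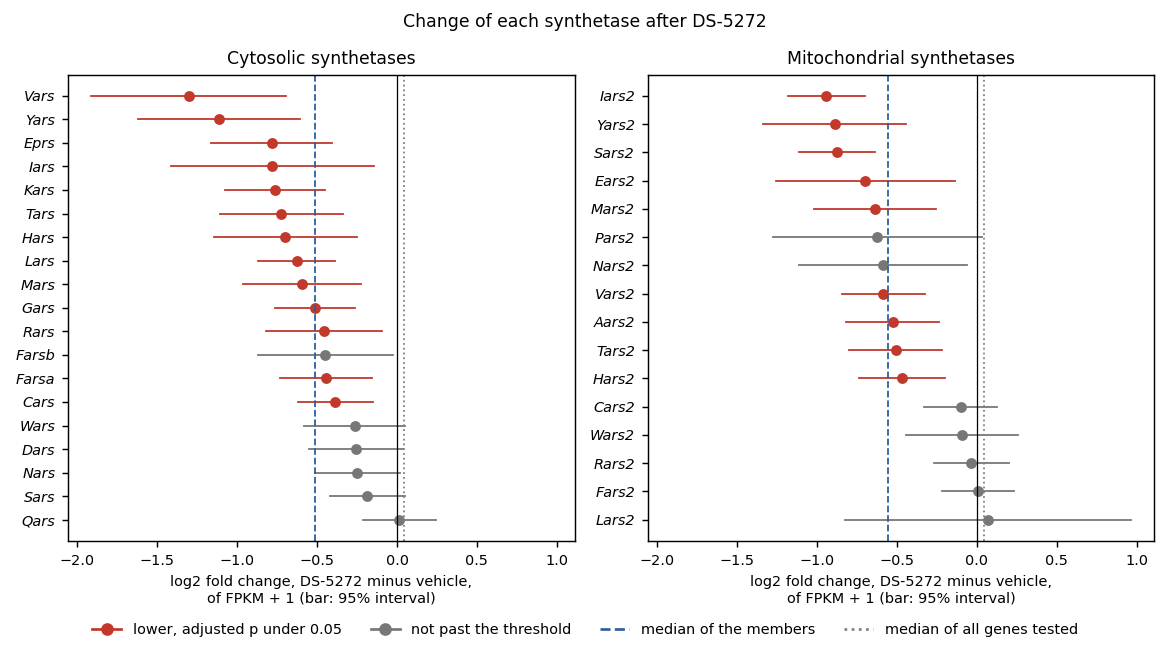
Log2 fold change of FPKM + 1, DS-5272 minus vehicle, for 19 cytosolic (left) and 16 mitochondrial (right) synthetases, with 95% intervals from limma (3 samples against 3). Red members passed the threshold, the dashed line is the median of the members (−0.51 and −0.56) and the dotted line that of all genes tested (0.04). Most points lie left of 0, while Qars, Fars2 and Lars2 lie at or just above it in FPKM as deposited and below it after rescaling to a common total.

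Among the cytosolic enzymes valyl-tRNA synthetase changed most. Vars (chr17:35000987-35016322 of GRCm38) had 82.8, 81.7 and 81.7 FPKM across the vehicle replicates, in the order of their numbers, and 32.2, 48.5 and 22.2 FPKM across the DS-5272 replicates. The vehicle samples were nearly alike, and every DS-5272 sample was well below them, at 41.8% of the vehicle level on average (limma log2 fold change −1.30 ± 0.26 SE, adjusted p = 0.0085). Yars, the tyrosyl enzyme, fell from 25.6, 23.0 and 21.6 FPKM to 12.1, 12.5 and 6.99 FPKM, or to 45.1% (limma log2 fold change −1.11 ± 0.21 SE, adjusted p = 0.0078). In FPKM as deposited these were the 2 cytosolic members with a log2 fold change of −1 or less, which 5.58% of all genes combined with a call, and no mitochondrial member reached it. After rescaling to a common total Eprs, Iars and Kars (−1.04, −1.03 and −1.03) and the mitochondrial Iars2, Sars2 and Yars2 (−1.20, −1.12 and −1.11) reached it too.

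Kars, the lysyl enzyme, was the most abundant member per length and had 116, 128 and 121 FPKM with vehicle and 72.6, 82.4 and 60.5 FPKM with DS-5272 (limma log2 fold change −0.76 ± 0.13 SE, adjusted p = 0.0060). Eprs, a fused enzyme for glutamate and proline, had 55.3, 53.4 and 54.8 FPKM with vehicle and 33.8, 37.0 and 24.3 FPKM with DS-5272 (limma log2 fold change −0.79, adjusted p = 0.0094). Both groups were clearly apart in these genes, and DS-5272 replicate 3 was the lowest sample. Tars, for threonine, fell from 51.4 ± 0.48 to 31.2 ± 6.79 FPKM (SD, n = 3). Lars, for leucine, fell from 50.6 ± 0.98 to 32.5 ± 3.17 FPKM (SD, n = 3). Gars, for glycine, fell from 67.0 ± 1.59 to 46.8 ± 5.03 FPKM (SD, n = 3). Their log2 fold changes were −0.72 for Tars, −0.63 for Lars and −0.51 for Gars, with adjusted p of 0.012, 0.0050 and 0.0097 from limma. The calls of Vars, Yars, Kars, Eprs, Tars, Lars and Gars held in all 6 fits that left out 1 sample.

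A further 6 cytosolic members were called lower in the fit of all samples but not in each fit without 1 sample. Iars, for isoleucine, had 39.9, 31.0 and 31.2 FPKM with vehicle and 25.4, 22.7 and 12.3 FPKM with DS-5272 (limma log2 fold change −0.78 ± 0.27 SE, adjusted p = 0.049). Its call did not hold without vehicle replicate 1, 2 or 3 (limma adjusted p = 0.137, 0.097 and 0.092) or DS-5272 replicate 2 (0.064). Hars, for histidine, fell from 39.9 ± 1.29 to 24.8 ± 6.30 FPKM (SD, n = 3), with an adjusted p of 0.023 from limma and of 0.063 to 0.068 without 1 of the vehicle replicates 1, 2 and 3. Mars, for methionine, fell from 32.4 ± 3.02 to 21.3 ± 3.92 FPKM (SD, n = 3, limma adjusted p = 0.020), and its adjusted p was 0.068 and 0.060 without vehicle replicate 1 or 2. The groups did not overlap in any of these 3 genes.

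Rars, for arginine, fell from 52.4 ± 1.26 to 38.5 ± 7.56 FPKM (SD, n = 3, limma adjusted p = 0.047), and its adjusted p was 0.109, 0.112 and 0.127 without vehicle replicate 1, 2 or 3 and 0.060 without DS-5272 replicate 1. Farsa, the catalytic subunit for phenylalanine, fell from 74.3 ± 1.35 to 54.7 ± 7.81 FPKM (SD, n = 3, limma adjusted p = 0.024, and 0.072 to 0.081 without vehicle replicate 1, 2 or 3). Cars, for cysteine, was the cytosolic member with the lowest level and fell from 17.7 ± 1.01 to 13.3 ± 0.92 FPKM (SD, n = 3, limma adjusted p = 0.019, and 0.054 to 0.073 without vehicle replicate 1, 2 or 3). Farsb, the other phenylalanine subunit, changed by a log2 fold change of −0.45, close to the −0.44 of Farsa. It had 34.3, 34.1 and 32.6 FPKM with vehicle and 28.7, 27.9 and 18.1 FPKM with DS-5272, did not overlap and did not pass the threshold (limma adjusted p = 0.078), but passed with the replicate block (0.040) and without DS-5272 replicate 1 (0.050, just under the threshold).

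Of the other cytosolic enzymes, none passed the threshold in FPKM as deposited. Qars, for glutamine, had 60.8, 68.1 and 65.8 FPKM with vehicle and 61.1, 68.4 and 67.4 FPKM with DS-5272. Its groups covered the same range, and its log2 fold change was 0.02 with a 95% interval from −0.22 to 0.25 (limma adjusted p = 0.907). Rescaling to a common total turned it to −0.25 (limma adjusted p = 0.082). Sars, for serine, went from 27.9 ± 1.12 to 24.4 ± 1.98 FPKM (SD, n = 3), with no overlap and an adjusted p of 0.158 from limma.

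Nars, for asparagine, Dars, for aspartate, and Wars, for tryptophan, overlapped between the groups, with log2 fold changes of −0.25, −0.26 and −0.27 and adjusted p of 0.109, 0.127 and 0.142 from limma. Nars passed the threshold without DS-5272 replicate 2 (0.041) and Wars without DS-5272 replicate 1 (0.034). Wars had 27.9, 26.9 and 25.8 FPKM with vehicle and 26.3, 22.0 and 18.8 FPKM with DS-5272, so the first DS-5272 sample lay within the vehicle range and the others below it. After rescaling to a common total Sars, Nars and Dars were called lower (limma adjusted p = 0.023, 0.018 and 0.013). The joined entry of Aars and Exosc6, which cannot be read as the alanyl enzyme alone, had 59.9, 53.1 and 49.8 FPKM with vehicle and 45.8, 40.5 and 34.2 FPKM with DS-5272 (limma log2 fold change −0.43, adjusted p = 0.038).

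**Figure D2:**
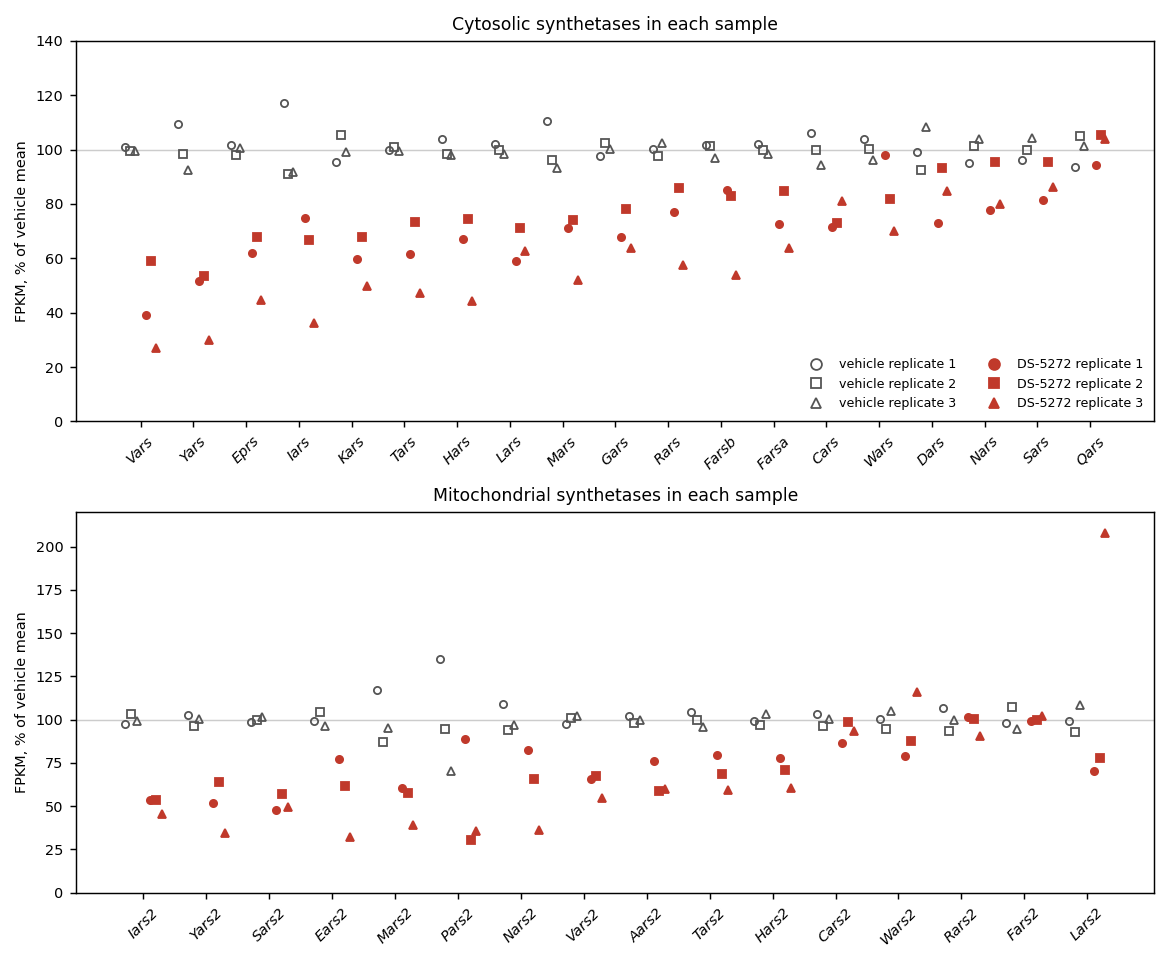
FPKM of each synthetase in each of the 6 samples, as a percentage of the gene's mean in the vehicle group, for cytosolic (top) and mitochondrial (bottom) members, ordered by log2 fold change. Open grey symbols are vehicle and filled red symbols DS-5272 replicates. Vars and Yars lie lowest among the cytosolic members with DS-5272, Qars lies at the vehicle level in FPKM as deposited (−0.25 on the log2 scale after rescaling to a common total), and DS-5272 replicate 3 is far above the other samples in Lars2.

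Members of the multisynthetase complex were set beside the other cytosolic enzymes, a split made after the values were seen. Of the 8 enzymes of the complex with an entry (Eprs, Iars, Lars, Mars, Qars, Rars, Kars and Dars), 6 were lower with a median log2 fold change of −0.61. Of the 11 outside it, 7 were lower with a median of −0.45, beside 22% of all genes tested called lower. Calls lost in some fits without 1 sample were those of Iars, Mars and Rars in the complex and of Cars, Farsa and Hars outside it. The mRNAs of the 3 scaffold proteins changed in the same direction, and 2 of the 3 were called lower. Aimp2, the scaffold that holds the complex together, had 40.0, 38.0 and 37.5 FPKM with vehicle and 24.9, 27.0 and 18.5 FPKM with DS-5272 (limma log2 fold change −0.71, adjusted p = 0.010).

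Aimp1 was at 37.3, 47.3 and 41.7 FPKM with vehicle and 27.4, 31.7 and 32.4 FPKM with DS-5272 (limma log2 fold change −0.45, adjusted p = 0.024). That call did not hold without vehicle replicate 2 or 3 or DS-5272 replicate 1 (limma adjusted p = 0.094, 0.077 and 0.051). Eef1e1, also known as Aimp3, had 33.9, 28.7 and 34.8 FPKM with vehicle and 25.5, 24.0 and 11.7 FPKM with DS-5272. It did not overlap and did not pass (limma adjusted p = 0.076), but passed without DS-5272 replicate 1 or 3 (0.045 and 0.046).

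In the mitochondrial group, the isoleucyl and seryl enzymes had the smallest adjusted p. Iars2 (chr1:185284726-185329396 of GRCm38) was the most abundant mitochondrial member and fell from 35.1, 37.2 and 35.8 FPKM to 19.4, 19.3 and 16.3 FPKM, or to 50.9% of the vehicle mean (limma log2 fold change −0.94 ± 0.10 SE, adjusted p = 0.0019). Sars2, for serine, fell from 14.0, 14.1 and 14.3 FPKM to 6.79, 8.03 and 6.99 FPKM, or to 51.5% (limma log2 fold change −0.87 ± 0.10 SE, adjusted p = 0.0021). In both genes the DS-5272 samples lay close together and far below the vehicle samples. Yars2, for tyrosine, had 9.56, 8.98 and 9.35 FPKM with vehicle and 4.84, 5.97 and 3.22 FPKM with DS-5272 (limma log2 fold change −0.89, adjusted p = 0.010). Vars2, for valine, had 7.84, 8.10 and 8.19 FPKM with vehicle and 5.27, 5.45 and 4.42 FPKM with DS-5272 (limma log2 fold change −0.59, adjusted p = 0.0074). The calls of these 4 genes held in all 6 fits that left out 1 sample.

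The other 5 mitochondrial calls were lost in some of those fits. Ears2, which charges glutamate, had 5.34, 5.65 and 5.2 FPKM with vehicle and 4.18, 3.33 and 1.73 FPKM with DS-5272 (limma log2 fold change −0.70, adjusted p = 0.047). Without vehicle replicate 1, 2 or 3 or DS-5272 replicate 2 its adjusted p was 0.104, 0.128, 0.104 and 0.074. Mars2, for methionine, fell from 2.95 ± 0.46 to 1.54 ± 0.34 FPKM (SD, n = 3, limma adjusted p = 0.018, and 0.059 and 0.057 without vehicle replicate 1 or 3). These are low levels at which counting error is larger, more so in the shallower DS-5272 samples.

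Aars2, for alanine, fell from 6.26 ± 0.12 to 4.07 ± 0.62 FPKM (SD, n = 3, limma adjusted p = 0.014, and 0.053 and 0.056 without vehicle replicate 2 or 3). Tars2, for threonine, fell from 21.4 ± 0.94 to 14.8 ± 2.18 FPKM (SD, n = 3, limma adjusted p = 0.016, and 0.055 and 0.059 without vehicle replicate 1 or 2). Hars2, for histidine, fell from 10.1 ± 0.32 to 7.06 ± 0.87 FPKM (SD, n = 3, limma adjusted p = 0.016, and 0.057 and 0.071 without vehicle replicate 2 or 3). In each of the 3 genes every DS-5272 sample was below every vehicle sample.

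Of the 7 mitochondrial members that did not pass, Nars2, for asparagine, and Pars2, for proline, had log2 fold changes of −0.59 and −0.62 with wide spread. Nars2 had 4.96, 4.28 and 4.41 FPKM with vehicle and 3.75, 2.99 and 1.65 FPKM with DS-5272 (limma adjusted p = 0.066, 0.031 with the replicate block and 0.025 without DS-5272 replicate 1). Pars2, the member with the lowest level, had 3.14, 2.21 and 1.64 FPKM with vehicle and 2.07, 0.711 and 0.832 FPKM with DS-5272 (limma adjusted p = 0.104, 0.017 with the block and 0.021 without DS-5272 replicate 1). With the block the count of lower members was 11 of 16 mitochondrial and, with Farsb, 14 of 19 cytosolic, where 24.9% of all genes were lower.

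Fars2, Rars2, Cars2 and Wars2, for phenylalanine, arginine, cysteine and tryptophan, showed differences close to 0. Fars2 had 8.26, 9.04 and 7.97 FPKM with vehicle and 8.35, 8.42 and 8.61 FPKM with DS-5272, with a 95% interval of the log2 fold change from −0.22 to 0.23. Rars2 had 19.3, 16.9 and 18.1 FPKM with vehicle and 18.3, 18.1 and 16.4 FPKM with DS-5272, with an interval from −0.27 to 0.20. The log2 fold changes of Cars2 and Wars2 were −0.10 and −0.09, with intervals from −0.33 to 0.13 and from −0.44 to 0.26. The groups overlapped in all 4 genes. After rescaling to a common total none of the 4 passed either (limma adjusted p = 0.195 for Fars2, 0.197 for Rars2, 0.066 for Cars2 and 0.053 for Wars2).

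Lars2, the mitochondrial leucyl enzyme (chr9:123366927-123462666 of GRCm38), was high in a single sample. It had 16.1, 15.1 and 17.6 FPKM with vehicle and 11.4, 12.7 and 33.8 FPKM with DS-5272, so DS-5272 replicates 1 and 2 lay below the vehicle samples and DS-5272 replicate 3 above them. Over all samples its log2 fold change was 0.07 with a standard error of 0.38 (limma adjusted p = 0.889). Without DS-5272 replicate 3 it was −0.40 (limma adjusted p = 0.030).

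The ribosomal RNA entries moved with Lars2 in that sample. Rn45s, the precursor of ribosomal RNA, had 100.045, 103 and 162 FPKM with vehicle and 71.6, 105 and 347 FPKM with DS-5272. Rn18s had 26.4, 23.2 and 31.9 FPKM with vehicle and 22.3, 24.4 and 105 FPKM with DS-5272. DS-5272 replicate 3 was the highest of the 6 samples in both entries, and their part in the Lars2 value was not tested.

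**Figure D3:**
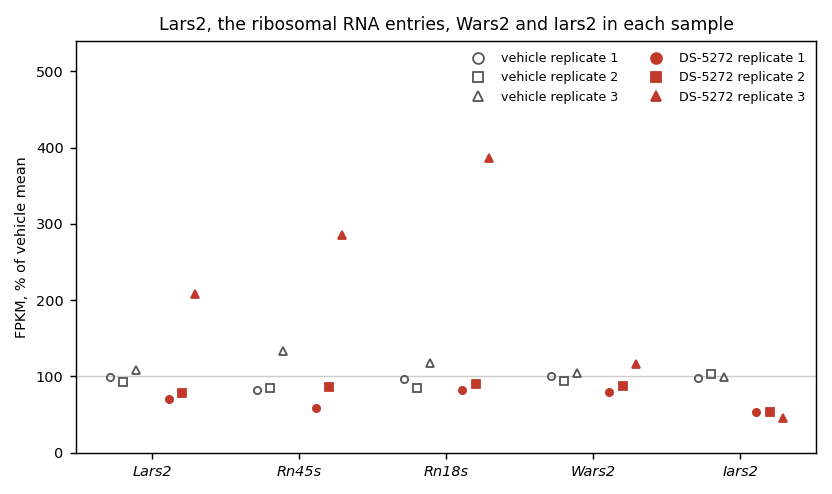
FPKM in each sample as a percentage of the vehicle mean for Lars2, the ribosomal RNA entries Rn45s and Rn18s, and 2 other mitochondrial synthetases, Wars2 and Iars2. DS-5272 replicate 3 (filled triangle) is the highest sample in Lars2, Rn45s and Rn18s, while in Iars2 all 3 DS-5272 samples lie near 50% of the vehicle mean.

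The order of the DS-5272 samples was not alike in the lists. DS-5272 replicate 3 was the lowest of the 6 samples in 13 of 19 cytosolic and 9 of 16 mitochondrial members, against 23.2% of all genes tested. DS-5272 replicate 2 was the highest of the DS-5272 samples in 15 of 19 cytosolic members but in 4 of 16 mitochondrial members. The median member stood at 71.6%, 74.6% and 57.6% of its vehicle mean in DS-5272 replicates 1, 2 and 3 for the cytosolic list, and at 77.7%, 66.8% and 57.2% for the mitochondrial list. The summed level of the cytosolic members was 1034, 1030 and 1032 FPKM with vehicle and 712, 816 and 626 FPKM with DS-5272. That of the mitochondrial members was 190, 184 and 186 FPKM with vehicle and 135, 134 and 142 FPKM with DS-5272, and in DS-5272 replicate 3 it includes the high Lars2. Depth was 0.746, 0.652 and 0.539 of that of vehicle replicate 1 in DS-5272 replicates 1, 2 and 3, and its part in these differences was not tested.

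Per length, the cytosolic enzymes were more abundant than the mitochondrial ones. Vehicle means ran from 17.7 FPKM in Cars to 122 FPKM in Kars for the cytosolic members, with a median of 51.4 FPKM, and from 2.33 FPKM in Pars2 to 36.1 FPKM in Iars2 for the mitochondrial members, with a median of 9.70 FPKM. The medians of the DS-5272 means were 31.7 and 7.16 FPKM. Within the mitochondrial list the most abundant gene, Iars2, and the less abundant Yars2 fell to 50.9% and 50.3% of the vehicle mean, while Vars, the cytosolic member with the largest fall, was less abundant than Kars, Nars and Dars.

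Each amino acid with separate genes for the compartments allows a comparison within a sample. For 13 such pairs the log2(FPKM + 1) of the cytosolic gene minus that of its mitochondrial partner was compared between the groups with an exact permutation test, two-sided, which with 3 samples against 3 cannot go below p = 0.1. In 6 pairs the groups did not overlap, which gives an exact permutation p = 0.1 in each and 0.217 after Benjamini-Hochberg adjustment over the 13 pairs, and in 7 pairs they overlapped. On this log2(FPKM + 1) scale the cytosolic gene fell more in 5 of the 6 pairs, namely Cars, Farsa, Lars, Rars and Vars. For single genes, the groups did not overlap, in either direction, in 61.8% of all genes tested. No such share was computed for other pairs of genes.

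The ratio of Vars to Vars2 went from 10.2 ± 0.31 to 6.68 ± 2.0 (SD, n = 3), and that of Farsa to Fars2 from 8.85 ± 0.56 to 6.47 ± 0.98 (SD, n = 3). Rars to Rars2 went from 2.91 ± 0.16 to 2.17 ± 0.32 and Cars to Cars2 from 1.48 ± 0.08 to 1.2 ± 0.10 (SD, n = 3). The pair of Lars and Lars2 rests in part on DS-5272 replicate 3, with ratios of 3.20, 3.34 and 2.82 with vehicle and 2.60, 2.83 and 0.936 with DS-5272, so on this linear scale the ranges touch while on the log2(FPKM + 1) scale they do not. For Mars and Mars2 the scale matters the other way, since the ratios were 10.4, 12.1 and 10.7 with vehicle and 13.0, 14.2 and 14.6 with DS-5272 and did not overlap, while the log2(FPKM + 1) differences did (exact permutation p = 0.5).

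The serine enzymes were the sixth pair and had higher ratios with DS-5272. The ratio of Sars to Sars2 was 1.92, 1.97 and 2.02 with vehicle and 3.33, 3.31 and 3.44 with DS-5272. The 3 DS-5272 samples were alike and all above the vehicle samples, since Sars2 fell by 0.87 and Sars by 0.19 on the log2 scale, a difference of 0.69 (exact permutation p = 0.1, the smallest possible). The tyrosine pair, Yars and Yars2, fell in both compartments, with ratios of 2.51 ± 0.19 and 2.26 ± 0.21 (SD, n = 3) that overlapped between the groups (exact permutation p = 0.2).

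**Figure D4:**
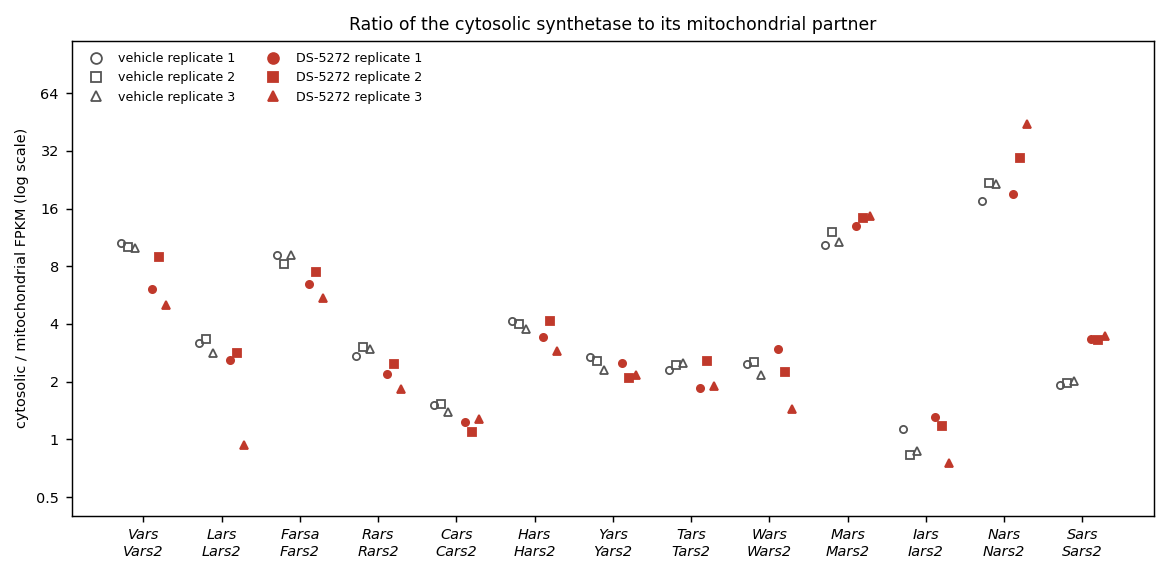
Ratio of cytosolic to mitochondrial FPKM in each sample, on a log scale, for 13 pairs ordered by the difference of their log2 fold changes. Open grey symbols are vehicle and filled red symbols DS-5272 replicates. The pair of Sars and Sars2 has a mean ratio of 1.97 with vehicle and 3.36 with DS-5272 with little spread and that of Mars and Mars2 one of 11.1 and 13.9, while Vars with Vars2, Farsa with Fars2, Rars with Rars2 and Cars with Cars2 are lower in all 3 DS-5272 samples.

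Promoter sequences were read for the members, since so many were lower together. RefSeq promoters of GRCm38.p6, from 250 bases before to 50 bases after the start site, were matched for 13 cytosolic and 14 mitochondrial members. The letters TGATGNAA, the form of the C/EBP-ATF element that ATF4 binds, were searched on both strands and found in 5 of 13 cytosolic windows (Aars, Gars, Iars, Tars and Yars) and in 0 of 14 mitochondrial windows, beside 4.51% of all genes with a promoter in the table. The E-box CACGTG, which MYC can bind, was found in Aars, Farsb, Iars and Tars and in the mitochondrial member Ears2, beside 8.09% of all genes. The stretches around these letters are shown for the 4 members with an entry of their own. They read 5′ to 3′ along the gene's strand, with the element in capitals, which is the reverse complement TTNCATCA in Gars, Iars and Tars, and with the E-box also in capitals in Iars and Tars.
Gars, chr6:55037941-55038008, plus strand: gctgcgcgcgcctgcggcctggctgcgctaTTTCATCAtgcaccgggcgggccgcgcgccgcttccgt
Iars, chr13:49682031-49682154, plus strand: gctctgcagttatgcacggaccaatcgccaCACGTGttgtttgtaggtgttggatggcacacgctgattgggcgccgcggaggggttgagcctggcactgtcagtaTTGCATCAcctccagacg
Tars, chr15:11399634-11399703, minus strand: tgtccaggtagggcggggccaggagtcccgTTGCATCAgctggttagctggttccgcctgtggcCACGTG
Yars, chr4:129189876-129189927, plus strand: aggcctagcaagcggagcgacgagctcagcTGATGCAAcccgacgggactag

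The elements begin 30 bases before the start site in Gars and 15 bases before it in Tars, and at base 8 and base 4 after it in Iars and Yars. All 4 genes were called lower, as were 13 of the 19 cytosolic members tested and 22% of all genes. The log2 fold changes of the 4 were −0.51 (Gars), −0.78 (Iars), −0.72 (Tars) and −1.11 (Yars), beside the cytosolic median of −0.51. Without vehicle replicate 1, 2 or 3 or DS-5272 replicate 2 Iars was not called (limma adjusted p = 0.137, 0.097, 0.092 and 0.064). The NRF1 core GCGCATGC was found in 0 of 13 cytosolic and 3 of 14 mitochondrial windows (Rars2, Vars2 and Wars2), beside 3.05% of all genes. The ETS letters CCGGAAGT were in Farsa, Mars and Rars2 (4.31% of all genes), the STAT letters TTCNNNGAA in Aars, Kars and Nars2 (9.55%), and the interferon element core GAAANNGAA in Qars (9.76%). A match of letters is a description of the window and not a measured binding site.

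The known regulators of synthetase transcription were measured in the same samples. Atf4 had 107, 202 and 228 FPKM with vehicle and 98.8, 280 and 290 FPKM with DS-5272, so replicate 1 was the lowest sample in both groups and the groups overlapped (log2 fold change 0.23, 95% interval from −0.90 to 1.37, limma adjusted p = 0.705). Rescaling to a common total turned its direction (−0.03). Myc, a driver of growth genes, had 49.5, 45.9 and 50.8 FPKM with vehicle and 30.2, 26.1 and 10.3 FPKM with DS-5272 (limma log2 fold change −1.23, adjusted p = 0.031). Its call did not hold without vehicle replicate 1, 2 or 3 (limma adjusted p = 0.079, 0.077 and 0.082), and without DS-5272 replicate 3 its log2 fold change was −0.77.

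Eif2ak4, which encodes GCN2, the kinase that senses uncharged tRNA, was at 6.73 ± 0.22 FPKM with vehicle and 6.18 ± 0.57 FPKM with DS-5272 (SD, n = 3, limma adjusted p = 0.421). Mtor was at 7.71 ± 0.92 and 7.48 ± 0.54 FPKM (SD, n = 3, limma adjusted p = 0.820). The mRNA of Trp53, which encodes p53 itself, fell to 53.1% of the vehicle mean (limma log2 fold change −0.91, adjusted p = 0.0086). The p53 protein, which the paper reported as higher after DS-5272, is not measured by these data.

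ATF4 targets outside the synthetases were called in both directions. Of 28 tested, 11 were lower and 4 higher, beside 22% and 24.2% of all genes, and the list had a median of −0.12 on the log2 scale. With the replicate block 11 were lower and 9 higher, beside 24.9% and 30.3% of all genes, so the share higher was near that of all genes. Without vehicle replicate 2 or 3 the lower count was 7 in both cases, where 12.7% and 13.4% of all genes were lower. The 3 largest falls were those of Phgdh, Shmt2 and Psat1. Phgdh, the first enzyme of serine synthesis, went from 14.4, 15.1 and 13.3 FPKM to 0.574, 1.26 and 0.0934 FPKM (limma log2 fold change −3.28, adjusted p = 7.3e-04).

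Shmt2, the mitochondrial serine hydroxymethyltransferase, went from 92.2 ± 5.25 to 21.4 ± 11.5 FPKM, and Psat1, the second enzyme of serine synthesis, from 116 ± 13.7 to 39.2 ± 14.9 FPKM (SD, n = 3). For Shmt2 and Psat1 no sample of 1 group reached the other (limma adjusted p = 0.0066 in both). Sesn2, a stress sensor and also a p53 target, rose from 7.79, 6.98 and 6.81 FPKM to 20.3, 24.2 and 52.7 FPKM (limma log2 fold change 1.91, adjusted p = 0.0059).

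Interferon gamma induced genes are the other known influence on this family, since Wars is induced by interferon gamma. Of 21 tested, 15 were higher and 0 lower, beside 24.2% and 22% of all genes, and the list had a median of 0.94 on the log2 scale, while Wars had a log2 fold change of −0.27 (95% interval from −0.58 to 0.05). The count of higher genes was 7 after rescaling to a common total, where 15.4% of all genes were higher. It was 7 and 8 without vehicle replicate 2 or 3 and 9 without DS-5272 replicate 1 or 3. In these fits, in that order, 14.7%, 16.2%, 26.4% and 20.1% of all genes were higher. Gbp2, an interferon-induced GTPase, rose from 5.67, 2.56 and 2.56 FPKM to 28.9, 14.2 and 22.0 FPKM. Cd274, which encodes PD-L1, rose from 5.88, 5.63 and 5.06 FPKM to 20.5, 21.9 and 32.5 FPKM, and Irf1, a transcription factor of the response, rose to 258% of the vehicle mean (limma adjusted p between 0.0012 and 0.010 in these 3 genes).

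Of 6 genes of mitochondrial amidation and formylation and of selenocysteine charging, 4 were called lower (Pet112l, Qrsl1, Pstk and Sepsecs), beside 22% of all genes. Mitochondria make glutaminyl-tRNA indirectly, by amidation of glutamyl-tRNA that Ears2 has charged. Of the 3 subunits of the amidotransferase, Pet112l (GatB) fell from 8.79 ± 1.22 to 4.75 ± 0.63 FPKM (SD, n = 3, log2 fold change −0.76, limma adjusted p = 0.0070). Qrsl1 (GatA) fell from 7.01 ± 0.13 to 5.30 ± 0.62 FPKM (SD, n = 3, limma adjusted p = 0.039), a call that held only without DS-5272 replicate 2 when 1 sample was left out (adjusted p up to 0.129). Gatc was at 15.7 ± 1.31 and 12.6 ± 1.14 FPKM (SD, n = 3, limma adjusted p = 0.061, 0.038 with the block and 0.045 without DS-5272 replicate 1).

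Mtfmt, which formylates the initiator methionyl-tRNA, was at 10.8 ± 0.47 and 8.08 ± 1.43 FPKM (SD, n = 3, limma adjusted p = 0.054, 0.041 with the block and 0.020 without DS-5272 replicate 1). Pstk and Sepsecs, which turn seryl-tRNA into selenocysteinyl-tRNA for translation in the cytosol, had log2 fold changes of −0.69 and −0.42 (limma adjusted p = 0.0075 and 0.045). The call of Sepsecs did not hold without vehicle replicate 1 or 2 or DS-5272 replicate 2 or 3 (adjusted p = 0.133, 0.129, 0.105 and 0.096). The count of lower genes was 6 of 6 with the block, beside 24.9% of all genes. It was 2 without vehicle replicate 1 or 2 or DS-5272 replicate 3, beside 15.1%, 12.7% and 19.7% of all genes.

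Proofreading enzymes that remove wrongly attached amino acids were measured as 3 genes. Dtd1, which removes D-amino acids, had 38.0, 45.1 and 42.9 FPKM with vehicle and 23.1, 27.0 and 21.7 FPKM with DS-5272 (limma log2 fold change −0.79, adjusted p = 0.0043). Aarsd1, which clears serine from alanine tRNA, had 32.0, 28.9 and 32.3 FPKM with vehicle and 14.3, 19.7 and 11.8 FPKM with DS-5272 (limma log2 fold change −1.01, adjusted p = 0.0065). In both genes the groups were far apart. Dtd2, listed as 6530401N04Rik, was at 5.86 ± 0.31 and 4.8 ± 0.28 FPKM (SD, n = 3, limma adjusted p = 0.092).

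The lists of elongation factors hold genes that deliver charged tRNA to the ribosome and genes of other steps of translation. Among the mitochondrial factors 3 of 4 were lower, beside 22% of all genes. Tsfm fell from 18.6, 18.6 and 19.0 FPKM to 9.20, 10.5 and 6.67 FPKM (limma log2 fold change −1.03, adjusted p = 0.0043). Gfm1 had a log2 fold change of −0.73 and Tufm, which delivers the tRNA, one of −0.56 (limma adjusted p = 0.0079 and 0.010). Gfm2, which acts in ribosome recycling, was at 8.43 ± 1.13 and 8.42 ± 1.02 FPKM (SD, n = 3, limma adjusted p = 0.998).

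Among the 6 cytosolic factors 2 were lower, beside 22% of all genes. With the block 5 were lower and after rescaling to a common total 6, beside 24.9% and 31.9% of all genes. Eef1d, an exchange factor, fell from 96.3, 98.2 and 97.0 FPKM to 60.3, 72.9 and 53.2 FPKM (limma log2 fold change −0.65, adjusted p = 0.0089). Eif5a fell from 896, 1005 and 1005 FPKM to 563, 787 and 554 FPKM (limma adjusted p = 0.024), and lost the call without vehicle replicate 2 or 3 or DS-5272 replicate 1 or 3 (0.090, 0.084, 0.051 and 0.064). The lower count was 1 without vehicle replicate 2, vehicle replicate 3 or DS-5272 replicate 3, beside 12.7%, 13.4% and 19.7% of all genes.

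The remaining 4 cytosolic factors did not pass. Eef1a1, which delivers charged tRNA in the cytosol and is the most abundant gene named here, was at 3797 ± 345 FPKM with vehicle and 3744 ± 515 FPKM with DS-5272 (SD, n = 3, log2 fold change −0.03, 95% interval from −0.45 to 0.40). Eef2 had a log2 fold change of −0.21 and Eef1b2 one of −0.24 (limma adjusted p = 0.354 and 0.250, 0.044 and 0.047 with the block). Eef1g went from 470.0 ± 15.5 to 339 ± 69.3 FPKM (SD, n = 3, limma adjusted p = 0.053, 0.018 with the block and 0.045 without DS-5272 replicate 1).

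Among genes that make and modify tRNA, lower calls were made in 28 of 44 tested tRNA modification enzymes, 11 of 21 genes of tRNA processing, export and CCA addition, and 10 of 22 genes of RNA polymerase III and its factors, with 0 higher in each, beside 22% of all genes lower. Their median log2 fold changes were −0.47, −0.52 and −0.37. Without vehicle replicate 1, 2 or 3 the counts for modification were 18, 15 and 17, where 15.1%, 12.7% and 13.4% of all genes were lower. For RNA polymerase III they were 4, 3 and 4 of 22, which is near those shares of all genes, and 6 of 22 without DS-5272 replicate 2, where 20.2% of all genes were lower. For processing the count was 7 without vehicle replicate 2 or 3.

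Pus7, a pseudouridine synthase, went from 10.8, 12.2 and 11.4 FPKM to 5.64, 5.78 and 1.51 FPKM (limma log2 fold change −1.36, adjusted p = 0.025), and lost the call without vehicle replicate 1, 2 or 3 (0.060, 0.076 and 0.066). Mettl1, which methylates guanosine in tRNA, and Nsun2, which methylates cytosine, had log2 fold changes of −1.27 and −1.06 (limma adjusted p = 0.0069 and 0.0092). Thg1l, which adds the extra guanosine of histidine tRNA, fell from 22.3, 23.7 and 22.1 FPKM to 11.0, 11.6 and 8.72 FPKM (limma log2 fold change −1.06, adjusted p = 0.0022). Each of these genes was lower in every DS-5272 sample than in any vehicle sample.

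Pop1 of RNase P and Tsen15 of the splicing endonuclease had log2 fold changes of −0.97 and −0.95 (limma adjusted p = 0.019 and 0.0087), and Pop1 lost the call without vehicle replicate 1 (0.061). Of RNA polymerase III, the subunit Polr3g and the factor Gtf3a had log2 fold changes of −0.87 and −0.66 (limma adjusted p = 0.011 and 0.0067).

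**Figure D5:**
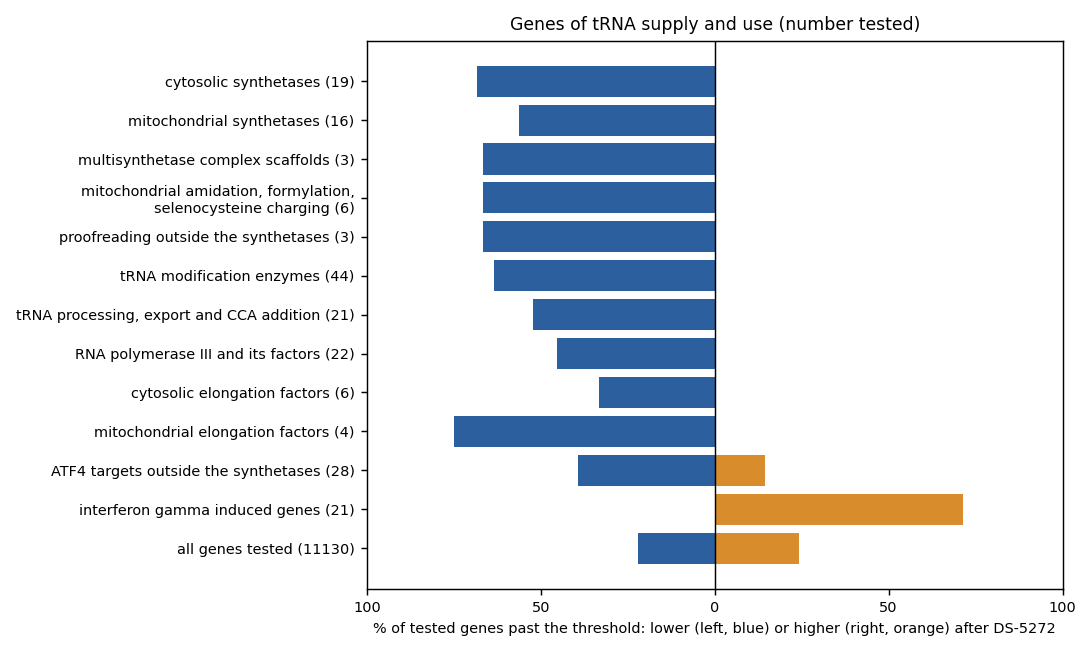
Percentage of the tested genes of each list past the threshold, lower to the left and higher to the right, with the number tested in parentheses and all 11130 genes tested in the bottom row. The synthetase lists (13 of 19 and 9 of 16 lower) and the other lists of tRNA supply have lower calls and no higher call, while interferon gamma induced genes have 15 of 21 higher.

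Markers of other cell types were read beside these results. NK cell markers summed to 0.399 to 0.816 FPKM with vehicle and 1.65 to 3.01 FPKM with DS-5272. T cell markers summed to 0.343 to 0.430 FPKM with vehicle and 0.705 to 3.54 FPKM with DS-5272. Bone marrow macrophage markers summed to 60.0 to 115 FPKM with vehicle and 187 to 416 FPKM with DS-5272. Of these 7 markers, 4 were called higher, beside 24.2% of all genes. The most abundant was Vcam1, with 36.6, 64.1 and 82.8 FPKM with vehicle and 143, 74.8 and 85.7 FPKM with DS-5272. The paper reported that DS-5272 raised VCAM-1 protein in c-Kit-positive cells, so Vcam1 cannot be read as a macrophage marker alone. Erythroid markers summed to 1.87 to 3.77 FPKM with vehicle and 8.20 to 90.3 FPKM with DS-5272. The most abundant was Hba-a1, with 2.39, 1.05 and 0.598 FPKM with vehicle and 84.2, 14.7 and 7.07 FPKM with DS-5272. Stroma and endothelium markers summed to 29.0 to 60.0 FPKM with vehicle and 73.4 to 112 FPKM with DS-5272. Pecam1 alone made up most of these sums, with 58.8, 28.7 and 26.4 FPKM with vehicle and 109, 68.3 and 74.5 FPKM with DS-5272. Only 2 of these 6 markers reached the level asked of tested genes, so the sums describe Pecam1 more than the cell types. B cell markers, led by Cd79b, summed to at most 7.47 FPKM in any sample, and megakaryocyte markers, led by Itga2b, to at most 7.46 FPKM. No marker with an entry was at 0 in all samples, and the part of these cells or of maturation in the synthetase differences was not tested.

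Exons of 13 of the 36 members overlap another annotated gene in GENCODE M21 on GRCm38. Among the members called lower these are Cars, Hars with Hars2, Mars with the stress gene Ddit3, Yars, Ears2, Iars2 and Vars2. Libraries were strand-specific, but no source says that strand was used in counting, and fragments of the other gene may be part of these values.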

How the data were processed

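Total RNA of sorted leukemia cells was made into strand-specific libraries and sequenced from both ends. The authors trimmed reads (cutadapt 1.8.1), aligned them to GRCm38 (TopHat2 2.1.1) and deposited FPKM per gene (Cufflinks 2.2.1), which are normalized for transcript length and mapped fragments and hold no counts. Rows that shared a symbol were summed.

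The groups were compared with limma 3.58.1 in R 4.3.3 (lmFit, two-sided, eBayes with trend), on log2(FPKM + 1), in 11130 genes that averaged 1 FPKM or more, adjusted by Benjamini-Hochberg at a threshold of 0.05. This scale understates the change of low genes. The script was tested on simulated data. Relative depth was read from the steps of genes under 0.15 FPKM.

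The members and lists were chosen with earlier results of these data known. Every synthetase was named, every tested gene of the scaffold, charging, proofreading, elongation factor and regulator lists, Cdkn1a and Mdm2, in the other lists the 3 largest called changes in the direction of the median and the largest the other way, and the most abundant marker. A gene that this rule names is not reported here. The ribosomal RNA entries and the joined entries were chosen after their values were seen.

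The replicate numbers run from 1 to 3 in both groups, and no source names a shared batch. Deviations from the group means correlated by 0.66, 0.21 and 0.43 between same-numbered samples, each above 0.1, so the numbers were taken as a possible pairing. The main calls and counts come from the fit that leaves the replicate number out. Correlations between different numbers ran from −0.58 to 0.34, and vehicle replicate 2 correlated more with DS-5272 replicate 3 than with replicate 2. Fits blocked on the number are quoted beside results whose call they changed or whose count they moved by over 1.5 times.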

Additional observations from a re-analysis of the deposited data

How the results depend on the processing

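Of the 22 members called lower, 11 (Eprs, Gars, Kars, Lars, Tars, Vars, Yars, Iars2, Sars2, Vars2 and Yars2) were lower under each of the 16 alternative fits, and no called member turned its direction in any. These fits used another pseudocount or filter, 4 rescalings, the replicate block, eBayes without trend, the highest row of a shared symbol, or 1 sample less. The replicate block added the calls of Farsb, Nars2 and Pars2 and removed none. A size limit of 1 on the log2 fold change, beside the adjusted p, left 2 cytosolic and 0 mitochondrial members in FPKM as deposited, and Eprs, Iars, Kars, Iars2, Sars2 and Yars2 besides with a common total. Fits that left out 1 sample gave from 7 to 14 cytosolic and from 5 to 11 mitochondrial members lower, where 12.7% to 21.9% of all genes were lower. The mitochondrial medians of these fits ran from −0.62 to −0.42. The cytosolic median was −0.77 with a common total (TPM) and −0.68 with quantile normalization, and the mitochondrial median −0.66 with upper quartile rescaling and −0.77 with a common total. The difference of the medians was on either side of 0, from −0.12 with quantile normalization to 0.12 with a pseudocount of 0.1. It moved by less than 0.176, the replicate spreads of the 2 lists combined as if independent. Both lists come from the same samples, so this is not the spread of the difference itself. Gars and Kars make both forms, and Qars was the only cytosolic member with a positive log2 fold change. Leaving out these 3 genes moved the difference to 0.03. Pairs without overlap numbered from 6 to 8 with 1 sample less.

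Members and regulators near 0 turned direction without a call, except Lars2 without DS-5272 replicate 3. With upper quartile rescaling the log2 fold change was −0.12 in Qars, −0.12 in Fars2 and −0.064 in Lars2, and with median ratio rescaling −0.029 in Qars and −0.033 in Fars2. With a common total it was −0.25 in Qars, −0.23 in Fars2, −0.19 in Lars2 and −0.031 in Atf4, and with quantile normalization −0.18 in Qars, −0.0021 in Fars2, −0.012 in Lars2 and −0.14 in Atf4. With 1 sample less, values ran from −0.030 to 0.065 in Qars, −0.027 to 0.054 in Fars2, −0.40 to 0.34 in Lars2, −0.080 to 0.013 in Rars2, −0.24 to 0.012 in Wars2, −0.11 to 0.085 in Eef1a1, −0.088 to 0.085 in Gfm2, −0.10 to 0.74 in Atf4 and −0.094 to 0.049 in Mtor. The cause was not tested. Depth is known only relative to vehicle replicate 1, so no counting interval was given, and low genes such as Pars2 and Mars2 carry the most counting error.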
